A study of Mus musculus with 16 samples.

Results

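Marrow-derived dendritic cells of mice labelled as lacking estrogen receptor α, ovariectomized and given an estradiol pellet, were compared with cells from unoperated wild-type mice, both under vehicle. Every gene row of the deposited expression table was included. The comparison rested on 4 of the 16 libraries of the series, 2 of the Ex3a OVX vehicle group and 2 of the WT vehicle group. All mice were NZM2410, an inbred strain that develops lupus nephritis. Marrow from femurs and tibias was grown with 20 ng/ml of GM-CSF and 10 ng/ml of IL-4, harvested on day 7 and given vehicle or TLR agonists for 24 h, and RNA was sequenced with paired ends. The Ex3a OVX mice were ovariectomized at 4 to 8 weeks of age and then carried a 0.25 mg, 90-day pellet of 17β-estradiol under the skin, and WT mice had an intact receptor and no surgery. The other vehicle groups used below were ERKO OVX, by its source name with the truncated receptor called ERα short, the same surgery and the same pellet, and KO, named in the same way, with no surgery. The agonist libraries of Ex3a OVX and WT had received CpG (1 μg/ml), which activates TLR9, and loxoribine (200 μmol/ml as labelled), which activates TLR7.

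The labels of the receptor disagree with each other. The source name calls the Ex3a OVX libraries null, while the genotype label gives the allele Esr1(tm1Ksk) and the description calls the receptor truncated and still partly responsive to estrogen. The ERKO OVX and KO vehicle libraries are the mirror image, with ERKO short in the source name, but the allele Esr1(tm4.2Ksk) and a description of no receptor activity. Groups follow the source names here, and values summed per gene cannot tell the alleles apart. Receptor form, ovariectomy, estradiol pellet and sequencing depth all differed between the groups, so their parts in any difference below cannot be told apart from this pair alone. The labels do not state whether replicate libraries derive from different animals or cultures, and the p-values below therefore reflect the variation among libraries alone, which could be technical.

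GM-CSF cultures of marrow hold cells with dendritic and with macrophage features side by side. IL-4 acts through the transcription factor STAT6 and turns on genes of alternative activation such as Arg1 and Retnla, while type I interferon turns on genes that hold a short promoter element named ISRE. Estrogen receptor α is a ligand-bound transcription factor that binds estrogen response elements or joins other factors on DNA, and myeloid precursors are known to express it.

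Values are FPKM, in which fragment counts are divided by transcript length in kilobases and by the mapped total in M (mega), so levels can be compared between genes. Depth estimated from the steps between low values was 22.8 and 23.4 M fragments in the Ex3a OVX libraries, against 43.05 and 36.35 M in the WT libraries. The sum of FPKM was 659985 and 657791 in Ex3a OVX cells, against 489612 and 489741 in WT cells, and 10495 and 10513 rows reached 1 FPKM in Ex3a OVX cells, against 10681 and 10673 in WT cells. The 10 highest rows held 16.1% and 16.2% of the sum in Ex3a OVX cells, against 13.1% in each WT library. The 2 Ex3a OVX libraries differed by no more than sampling noise, with a variance of 0.797 times that expected from counting, and were counted as 1 sample; the ratio was 2.03 in the WT pair. Where a test is given, it is the limma test on log2(FPKM + 1), in which the single Ex3a OVX sample was assumed to vary like the unoperated groups. A log2 fold change is Ex3a OVX over WT on that scale, ± its standard error, and understates the change of genes near or below 1 FPKM.

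Esr1, the gene of estrogen receptor α (chr10:4611593-5005614, GRCm38), was low in all 4 libraries, with 0.347 and 0.283 FPKM in Ex3a OVX cells, against 1.21 and 1.38 in WT cells (log2 fold change -0.80 ± 0.10, limma adjusted p = 2.24e-05). The groups did not overlap, as in most genes tested, and Esr1 was still detected in both Ex3a OVX libraries. In the other vehicle groups Esr1 was at 1.02 and 0.982 FPKM in ERKO OVX cells and 2.47 and 2.57 FPKM in KO cells. Of these groups, ERKO OVX and KO share a labelled receptor, and Ex3a OVX has no unoperated counterpart with its own. The deposited values sum all exons and do not test whether an exon was deleted. Of the genes listed around Esr1, 16 on chromosome 10 were tested besides Esr1 itself, and 5 rose, 7 fell and 4 did not pass the test. The largest differences among these were 1.85 ± 0.07 for Zc3h12d, a gene of the RNA-degrading regnase family, and -1.48 ± 0.05 for Syne1, which encodes a very long nuclear envelope protein. Centred on transcript length, a setting described below, Syne1 was at -0.17. Rmnd1 was -0.66, Zbtb2 0.37, Fbxo5 1.04, Cnksr3 -0.60, Nup43 0.51, Lats1 -0.46, Plekhg1 -0.44, Ppil4 -0.40, Katna1 0.35 and Mthfd1l -0.18 (log2 fold changes past the test). Centred on length, the limma calls of Lats1 (-0.01, adjusted p = 0.876), Katna1 (0.08, adjusted p = 0.166), Nup43 (0.24, adjusted p = 0.0662), Plekhg1 (0.02, adjusted p = 0.681) and Mthfd1l (-0.14, adjusted p = 0.0957) were lost. Ulbp1 (0.08), Pcmt1 (0.06), Mtrf1l (-0.05) and Ginm1 (0.03) did not pass the test. Centred on length, Ulbp1 (0.42), Ginm1 (-0.28) and Mtrf1l (-0.18) did pass it, while Pcmt1 (-0.04) again did not. Tiam2 (-1.02) and Scaf8 (-0.32), also in that list, lie on chromosome 17.

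Xist, the noncoding RNA of the inactive X chromosome, fell to 8.59 and 8.64 FPKM in Ex3a OVX cells, against 66.3 and 62.9 in WT cells (log2 fold change -2.77 ± 0.07, limma adjusted p = 1.76e-10). Levels were alike within each pair. Xist was also low in the other ovariectomized group and high in the other unoperated group, at 7.20 and 7.20 FPKM in ERKO OVX cells and 62.2 and 66.2 FPKM in KO cells. Of the Y-linked genes Ddx3y, Eif2s3y, Kdm5d and Uty, all were at 0 in the Ex3a OVX libraries and only Uty was above 0 in a WT library, at 0.00493 FPKM. The X-linked genes Kdm6a, Eif2s3x, Kdm5c and Ddx3x, which escape inactivation, also fell, by 0.78, 0.64, 0.51 and 0.44 on the log2 scale.

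Most measured genes differed between the groups. Of 11346 genes tested, 9361 (82.5%) passed an adjusted p of 0.05, with 4718 (41.6%) higher and 4643 (40.9%) lower in Ex3a OVX cells, and the median log2 fold change over all genes was 0.01. Differences of over 2-fold with no overlap between the libraries were seen in 822 genes (7.24%) that rose and 830 (7.32%) that fell. At any size, 5289 of the 11346 genes were higher and 5182 lower without overlap, so a lack of overlap by itself also separates little. Large differences were more often rises on this scale, which adds 1 FPKM. By over 4-fold 210 genes rose and 100 fell, and by over 8-fold 78 rose and 13 fell. The balance at over 2-fold moved with the amount added, with 1070 rises and 1363 falls at 0.1 FPKM. Larger folds were not counted at other amounts. With 82.5% of genes called, a call by itself separates little, so each gene group below is read against these shares and by the size of its differences.

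The 15 genes that rose most included Cxcl10 and Iigp1 of the interferon-stimulated list, the acute-phase genes Saa3 and Lcn2, the scavenger receptor Marco, Ms4a4c and the granule proteases Gzmb, Gzmc, Gzmd and Prss34. Genes were taken only where the Ex3a OVX and WT libraries did not overlap. The 2 Ex3a OVX libraries lay close together, and WT values of Ms4a4c, Vnn3, Gzmb, Gzmc, Gzmd and Prss34 were below 1 FPKM. In a bulk sample, fewer cells of a type and less RNA per cell cannot be told apart. Plac8, a small cysteine-rich protein of myeloid cells (chr5:100553725-100572245), reached 245 and 252 FPKM in Ex3a OVX cells, against 1.09 and 1.57 in WT cells (log2 fold change 6.75 ± 0.20, limma adjusted p = 1.17e-07). Ms4a4c, a membrane-spanning protein of the MS4A family (chr19:11404770-11427246), reached 141 and 136 FPKM in Ex3a OVX cells, against 0.938 and 0.901 in WT cells (log2 fold change 6.18 ± 0.06, limma adjusted p = 1.07e-12). Cxcl10, a chemokine for cells bearing CXCR3 (chr5:92346638-92348889), reached 205 and 202 FPKM in Ex3a OVX cells, against 3.503 and 2.82 in WT cells (log2 fold change 5.62 ± 0.16, limma adjusted p = 7.38e-08). Saa3, an acute-phase serum amyloid made by macrophages (chr7:46711998-46715700), was the most abundant of the 15 with 4022 and 4009 FPKM in Ex3a OVX cells, against 93.7 and 110.1 in WT cells (log2 fold change 5.29 ± 0.07, limma adjusted p = 2.85e-11).

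Vnn3 (chr10:23851462-23869843), a pantetheinase of the vanin family, reached 41.5 and 41.3 FPKM in Ex3a OVX cells, against 0.154 and 0.274 in WT cells (log2 fold change 5.13 ± 0.07, limma adjusted p = 4.39e-12). Iigp1, an interferon-inducible GTPase that attacks pathogen vacuoles, reached 89.6 and 90.7 FPKM in Ex3a OVX cells, against 1.58 and 1.72 in WT cells (log2 fold change 5.10 ± 0.06, limma adjusted p = 2.88e-12). Marco (chr1:120474538-120505024), a scavenger receptor for bacteria, reached 186 and 187 FPKM in Ex3a OVX cells, against 5.13 and 5.63 in WT cells (log2 fold change 4.88 ± 0.05, limma adjusted p = 9.67e-13). The next genes are granule proteases, and their WT levels were near 0. Gzmb (chr14:56258838-56262260) reached 31.5 and 35.05 FPKM in Ex3a OVX cells, against 0.102 and 0.281 in WT cells. Gzmc (chr14:56231441-56234656) reached 39.5 and 39.5 FPKM in Ex3a OVX cells, against 0.222 and 0.622 in WT cells. Gzmd (chr14:56129556-56132608) reached 26.3 and 24.9 FPKM in Ex3a OVX cells, against 0.138 and 0 in WT cells. The log2 fold changes of these granzymes of killer lymphocytes were 4.85 ± 0.13, 4.84 ± 0.18 and 4.64 ± 0.11. Prss34 (chr17:25298394-25300165), a basophil and mast cell protease, reached 28.1 and 27.0 FPKM in Ex3a OVX cells, against 0.0202 and 0.0239 in WT cells (4.80 ± 0.06).

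Lst1 (chr17:35185095-35188439), a leukocyte gene in the MHC region, reached 644 and 642 FPKM in Ex3a OVX cells, against 25.8 and 23.2 in WT cells (4.66 ± 0.12). Ly6c2 (chr15:75108158-75111970), a surface marker of inflammatory monocytes, reached 3647 and 3689 FPKM in Ex3a OVX cells, against 142 and 147 in WT cells (4.65 ± 0.04). Lcn2 (chr2:32384633-32388252), a lipocalin that withholds siderophore-bound iron from bacteria, reached 603 and 594 FPKM in Ex3a OVX cells, against 21.1 and 25.9 in WT cells (4.62 ± 0.11). Cd72 (chr4:43446462-43454628), an inhibitory lectin best known from B cells, reached 63.2 and 62.6 FPKM in Ex3a OVX cells, against 1.69 and 1.62 in WT cells (4.59 ± 0.06). Limma adjusted p-values of the last 8 genes lay between 5.00e-13 and 2.88e-08. Gzmc and Gzmd, and Ms4a4c with its neighbours, belong to families of near copies whose reads the authors' counting could split, so the level of a single copy is uncertain.

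**Figure D1:**
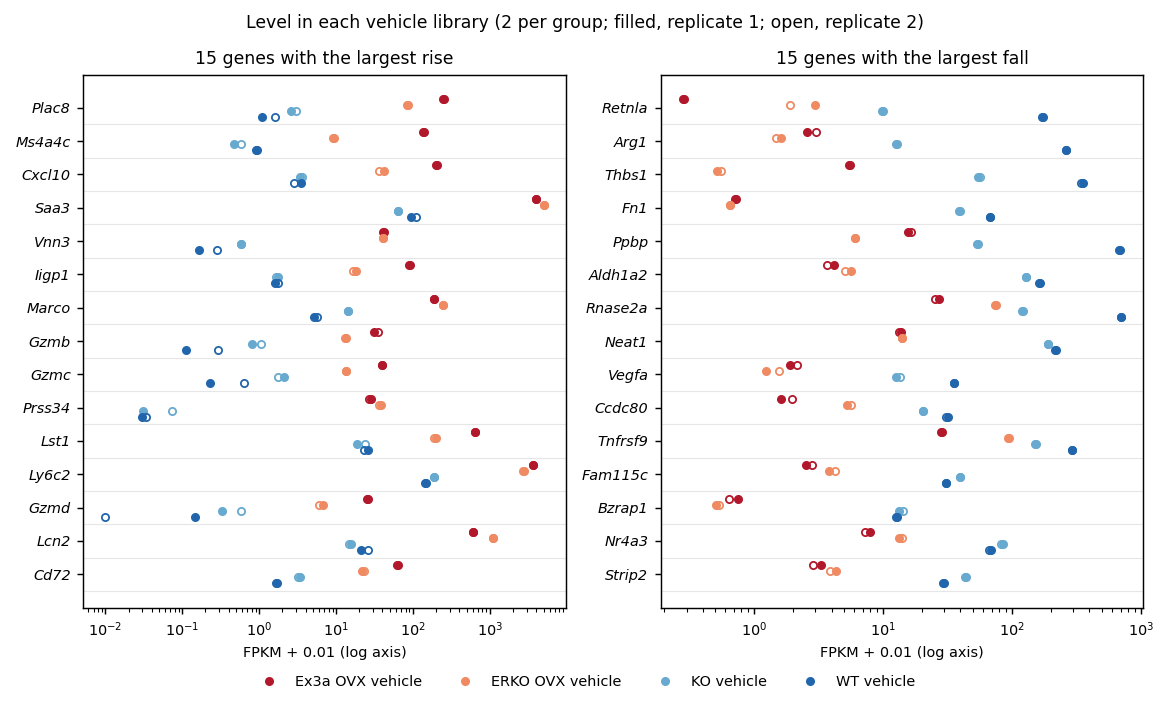
FPKM plus 0.01 on a log axis for the 15 genes with the largest rise (left) and the 15 with the largest fall (right) in Ex3a OVX over WT cells under vehicle, with 2 libraries per group and the ERKO OVX and KO vehicle libraries between them. Genes were chosen so that Ex3a OVX (red) and WT (dark blue) points do not overlap, Plac8 being at 245 and 252 FPKM in Ex3a OVX cells against 1.09 and 1.57 FPKM in WT cells, and ERKO OVX points lie nearer the Ex3a OVX points for most genes.

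The 15 genes that fell most, chosen in the same way, included Retnla and Arg1 of the IL-4 response list, the matrix glycoproteins Thbs1 and Fn1, the chemokine Ppbp, the retinoic acid enzyme Aldh1a2 and the growth factor Vegfa. Retnla, a secreted resistin-like protein (chr16:48842551-48844461), fell to 0.278 and 0.271 FPKM in Ex3a OVX cells, against 176 and 173 in WT cells (log2 fold change -7.11 ± 0.04, limma adjusted p = 4.04e-14). Arg1, the arginase that splits arginine into urea and ornithine (chr10:24915221-24927484), fell to 2.57 and 3.01 FPKM in Ex3a OVX cells, against 263 and 262 in WT cells (log2 fold change -6.12 ± 0.08, limma adjusted p = 8.88e-12). These were abundant messages in WT cells and close to or below 3 FPKM in Ex3a OVX cells. Thbs1, the matrix protein thrombospondin 1 (chr2:118111876-118127133), fell to 5.59 and 5.41 FPKM in Ex3a OVX cells, against 359.6 and 342 in WT cells (log2 fold change -5.76 ± 0.06, limma adjusted p = 1.07e-12). Fn1, fibronectin (chr1:71585520-71653200), fell to 0.704 and 0.722 FPKM in Ex3a OVX cells, against 67.6 and 67.3 in WT cells (log2 fold change -5.32 ± 0.06, limma adjusted p = 1.07e-12). Ppbp, the precursor of the neutrophil chemokine CXCL7 (chr5:90768518-90770063), fell to 15.7 and 16.6 FPKM in Ex3a OVX cells, against 689.8 and 678 in WT cells (log2 fold change -5.32 ± 0.06, limma adjusted p = 2.50e-12). The libraries of a pair again lay close together.

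Aldh1a2 (chr9:71215789-71296243), which makes retinoic acid from retinal, fell to 4.18 and 3.69 FPKM in Ex3a OVX cells, against 165 and 162 in WT cells (-5.06 ± 0.03). Rnase2a (chr14:51255262-51256112), a ribonuclease of the eosinophil-associated family, fell to 27.0 and 25.4 FPKM in Ex3a OVX cells, against 709 and 705 in WT cells (-4.70 ± 0.03). Neat1 (chr19:5824708-5845478), the long noncoding RNA scaffold of nuclear paraspeckles, fell to 13.8 and 13.3 FPKM in Ex3a OVX cells, against 221 and 218 in WT cells (-3.92 ± 0.07). Neat1 has a very long transcript, and its log2 fold change was -2.80 once the trend with length described below was taken out. Vegfa (chr17:46016993-46032369), the endothelial growth factor, fell to 1.88 and 2.16 FPKM in Ex3a OVX cells, against 35.7 and 35.4 in WT cells (-3.59 ± 0.06). Ccdc80 (chr16:45093402-45128077), a secreted matrix-associated protein, fell to 1.60 and 1.96 FPKM in Ex3a OVX cells, against 32.2 and 30.7 in WT cells (-3.54 ± 0.08). Tnfrsf9 (chr4:150914562-150946102), the costimulatory receptor 4-1BB, fell to 28.8 and 28.4 FPKM in Ex3a OVX cells, against 292 and 292 in WT cells (-3.31 ± 0.03).

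Nr4a3 (chr4:48045153-48086447), an orphan nuclear receptor of the immediate early class, fell to 7.93 and 7.29 FPKM in Ex3a OVX cells, against 68.6 and 67.01 in WT cells (-2.999 ± 0.04). Strip2 (chr6:29917012-29959681) fell to 3.30 and 2.87 FPKM in Ex3a OVX cells, against 29.0 and 29.7 in WT cells (-2.89 ± 0.05). Fam115c fell to 2.55 and 2.83 FPKM in Ex3a OVX cells, against 31.1 and 30.9 in WT cells (-3.12 ± 0.04). Bzrap1 fell to 0.742 and 0.625 FPKM in Ex3a OVX cells, against 12.9 and 12.7 in WT cells (-3.03 ± 0.10). Limma adjusted p-values of these last 10 genes lay between 4.04e-14 and 2.22e-09. All 30 genes kept their direction and their call under every setting in which they could be tested. Since they were chosen for the size of their differences, this says little about genes with smaller ones.

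The path between the groups can be set out as 3 steps whose log2 fold changes add up to that of Ex3a OVX over WT. These are Ex3a OVX over ERKO OVX (both operated, labelled null over short), ERKO OVX over KO (both labelled short, operated over unoperated, with depth changing too) and KO over WT (both unoperated, short over intact). The steps share libraries, so their values are given side by side and not set against each other in a test. The ERKO OVX over KO step was the largest of the 3 for 14 of the 15 genes that rose most and for 10 of the 15 that fell most. These genes were chosen by the sum of the steps, and the share of all genes with the same largest step was not counted. The counts therefore do not show that this order of steps is particular to these genes. For Saa3 the steps were -0.32 for Ex3a OVX over ERKO OVX, 6.29 for ERKO OVX over KO and -0.67 for KO over WT. For Lcn2 they were -0.86 for Ex3a OVX over ERKO OVX, 6.07 for ERKO OVX over KO and -0.59 for KO over WT, so the step across surgery exceeded the whole difference for both acute-phase genes. Cxcl10 had steps of 2.35 for Ex3a OVX over ERKO OVX, 3.16 for ERKO OVX over KO and 0.11 for KO over WT, and Iigp1 had 2.31 for Ex3a OVX over ERKO OVX, 2.77 for ERKO OVX over KO and 0.02 for KO over WT. Ms4a4c was the gene among the 15 whose largest step was labelled null over short, with 3.77 for Ex3a OVX over ERKO OVX, 2.75 for ERKO OVX over KO and -0.34 for KO over WT.

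Among the genes that fell, Fn1 had steps of 0.06 for Ex3a OVX over ERKO OVX, -4.62 for ERKO OVX over KO and -0.77 for KO over WT, and Aldh1a2 had -0.37 for Ex3a OVX over ERKO OVX, -4.35 for ERKO OVX over KO and -0.34 for KO over WT. Retnla, Arg1, Ppbp and Rnase2a had their largest step between the unoperated groups. For Arg1 the steps were 0.57 for Ex3a OVX over ERKO OVX, -2.43 for ERKO OVX over KO and -4.26 for KO over WT, and for Retnla they were -1.42 for Ex3a OVX over ERKO OVX, -1.68 for ERKO OVX over KO and -4.002 for KO over WT. Arg1 levels were 1.61 and 1.48 FPKM in ERKO OVX cells and 12.7 and 12.8 FPKM in KO cells, so the message was already low in the unoperated KO cells. Tnfrsf9 was the gene among these 15 whose largest step was labelled null over short, with -1.68 for Ex3a OVX over ERKO OVX, -0.69 for ERKO OVX over KO and -0.93 for KO over WT. Thbs1 moved in opposite directions along the path, with 2.09 for Ex3a OVX over ERKO OVX, -5.21 for ERKO OVX over KO and -2.64 for KO over WT.

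**Figure D2:**
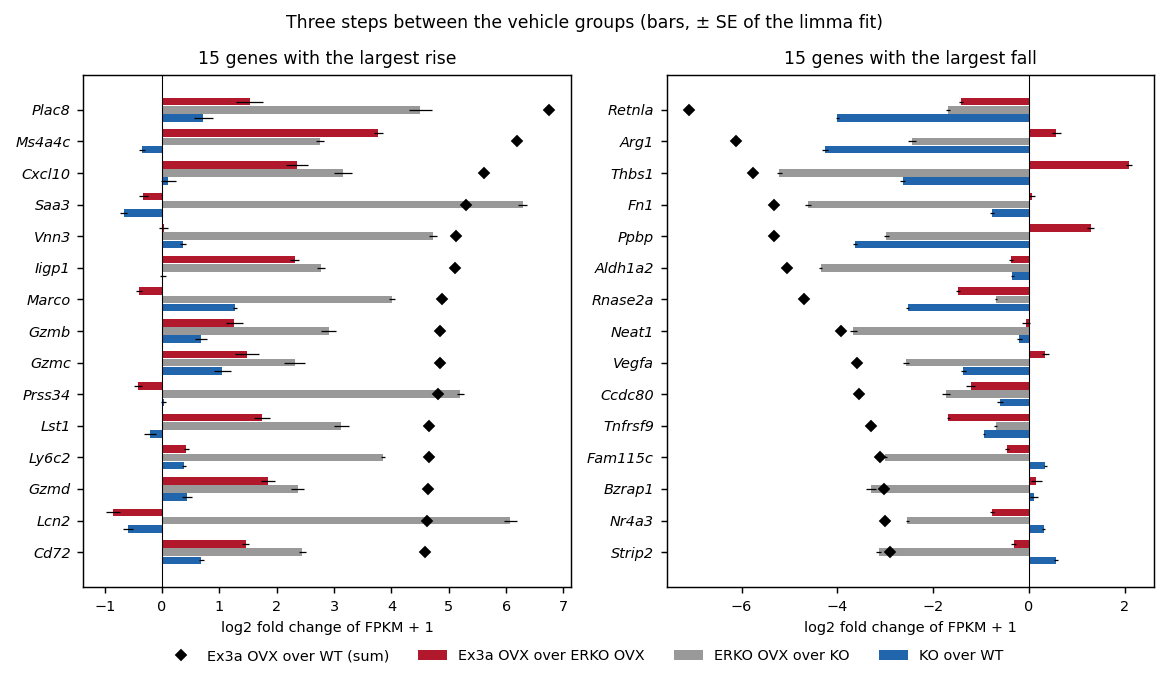
Log2 fold change of FPKM + 1 for the 3 steps between the vehicle groups (bars, ± standard error of the limma fit) and for Ex3a OVX over WT (black diamonds), for the 15 genes with the largest rise and the 15 with the largest fall. Grey bars, ERKO OVX over KO, are the longest for 14 of 15 genes on the left and 10 of 15 on the right, while blue bars, KO over WT, are the longest for Retnla, Arg1, Ppbp and Rnase2a.

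Interferon-stimulated genes rose nearly as a group. Of 38 tested, 37 rose and 1 fell, and 32 rose by over 2-fold, against 41.6% and 7.24% of all genes; their median log2 fold change was 1.86, against 0.01 over all genes. Cxcl10 and Iigp1 led them. Ifit3, which helps block viral RNA translation, was next with 252 and 252 FPKM in Ex3a OVX cells, against 10.7 and 10.9 in WT cells (log2 fold change 4.43 ± 0.04, limma adjusted p = 5.90e-13). Ifit2, its relative, reached 188 and 192 FPKM in Ex3a OVX cells, against 10.9 and 11.6 in WT cells (log2 fold change 3.96 ± 0.05, limma adjusted p = 5.48e-12). Irf7, the factor that amplifies interferon production in cells that sense nucleic acids, reached 745 and 753 FPKM in Ex3a OVX cells, against 86.5 and 86.0 in WT cells (log2 fold change 3.10 ± 0.03, limma adjusted p = 5.00e-13). Isg15, a ubiquitin-like modifier, had 893 and 891 FPKM in Ex3a OVX cells, against 66.5 and 65.8 in WT cells (3.73 ± 0.06). Rsad2, the antiviral enzyme viperin, had 207 and 205 FPKM in Ex3a OVX cells, against 18.4 and 19.6 in WT cells (3.37 ± 0.07). The single gene that fell was Oas2, a sensor of double-stranded RNA, with 14.8 and 15.6 FPKM in Ex3a OVX cells, against 17.3 and 17.2 in WT cells (log2 fold change -0.17 ± 0.04, limma adjusted p = 0.00264). Irf9 and Mx1 passed the test with small log2 fold changes of 0.30 and 0.18. Ifit and Oas genes are families of related copies, so single members are uncertain.

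The promoters of Cxcl10, Ifit3 and Isg15 are shown because they belong to members of this group and hold the interferon-stimulated response element, here the letters GAAANNGAAA on either strand. Isg15 was picked after the values were seen, for its overlapping matches. The windows run from 250 bases before to 50 after the RefSeq transcript start (GRCm38.p6, 300 bases each, 5′ to 3′ on the gene's strand), and capitals mark the matches. Cxcl10 lies at chr5:92348840-92349139 on the minus strand, Ifit3 at chr19:34583279-34583578 on the plus strand and Isg15 at chr4:156200769-156201068 on the minus strand.
Cxcl10: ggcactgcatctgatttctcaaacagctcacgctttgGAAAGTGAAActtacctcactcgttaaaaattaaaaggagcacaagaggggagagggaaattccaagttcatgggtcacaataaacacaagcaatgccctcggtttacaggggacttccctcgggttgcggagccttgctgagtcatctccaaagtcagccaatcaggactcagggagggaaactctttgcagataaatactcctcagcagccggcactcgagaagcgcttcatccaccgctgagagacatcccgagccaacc
Ifit3: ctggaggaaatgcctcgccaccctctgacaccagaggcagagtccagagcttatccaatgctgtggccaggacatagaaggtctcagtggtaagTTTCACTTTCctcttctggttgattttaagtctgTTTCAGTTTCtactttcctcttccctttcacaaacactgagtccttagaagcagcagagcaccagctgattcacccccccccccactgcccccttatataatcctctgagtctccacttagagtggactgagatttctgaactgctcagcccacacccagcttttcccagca
Isg15: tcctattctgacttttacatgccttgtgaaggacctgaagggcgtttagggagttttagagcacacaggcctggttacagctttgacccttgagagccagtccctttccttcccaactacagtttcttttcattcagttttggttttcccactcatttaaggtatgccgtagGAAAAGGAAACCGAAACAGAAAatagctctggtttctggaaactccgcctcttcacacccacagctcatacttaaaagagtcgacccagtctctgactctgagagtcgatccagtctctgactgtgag
Matches begin 213 bases before the start in Cxcl10, 156 and 122 bases before it in Ifit3, and 78, 72 and 66 bases before it in Isg15, where the 3 matches overlap. Of the 33 promoters found for 27 genes of the list, 17 (51.5%) held a match. The share was 3.44% of all 32851 promoters, 3.22% of the 11000 promoters of genes tested, 10.9% (81 of 746) of those of genes that rose by over 2-fold and 2.28% (18 of 791) of those of genes that fell by over 2-fold. A match describes the letters in this window and does not show binding.

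Antigen presentation genes rose. All 12 tested MHC class II presentation genes passed the test upward, 9 of them by over 2-fold, with a median of 1.65. H2-Ab1, the β chain of I-A, reached 1947 and 1938 FPKM in Ex3a OVX cells, against 218 and 208 in WT cells (log2 fold change 3.18 ± 0.03, limma adjusted p = 9.67e-13). H2-Aa, its α partner, reached 2873 and 2864 FPKM in Ex3a OVX cells, against 609.9 and 613 in WT cells (log2 fold change 2.23 ± 0.03, limma adjusted p = 2.12e-12). H2-Eb1 of I-E reached 2088 and 2089 FPKM in Ex3a OVX cells, against 332 and 327 in WT cells (2.66 ± 0.02). H2-DMb1, which helps load peptides, reached 217 and 212 FPKM in Ex3a OVX cells, against 37.9 and 38.0 in WT cells (2.47 ± 0.03). Ciita, the master regulator of the class II genes, had a smaller rise, with 17.1 and 17.1 FPKM in Ex3a OVX cells, against 11.5 and 11.8 in WT cells (0.51 ± 0.04). Among MHC class I genes 17 of 18 rose, 11 by over 2-fold, with a median of 1.10, and of 0.66 under quantile normalization. B2m, the light chain of class I, reached 12946 and 12965 FPKM in Ex3a OVX cells, against 4611 and 4638 in WT cells (log2 fold change 1.49 ± 0.02, limma adjusted p = 8.51e-12). The immunoproteasome subunit Psmb10 reached 219.5 and 219 FPKM in Ex3a OVX cells, against 66.9 and 66.3 in WT cells (1.70 ± 0.05). H2-T23 and H2-M3, nonclassical class I genes, rose by 1.57 and 1.55 on the log2 scale. H2-Q7 was the member that fell (log2 fold change -0.55 ± 0.10, limma adjusted p = 0.000613), but its 2 Ex3a OVX libraries disagreed, with 12.6 and 7.66 FPKM in Ex3a OVX cells, against 14.7 and 15.8 in WT cells, and its adjusted p was 0.443 when all 16 libraries entered the limma fit as samples. Class II counts under quantile normalization were 11 higher and 1 lower, and H2 genes are close copies of each other.

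Inflammatory cytokine genes mostly rose, with 19 of 22 higher and 2 lower (median 0.77). Il1b, the pyrogenic cytokine of the inflammasome, had 365 and 367 FPKM in Ex3a OVX cells, against 31.0 and 42.7 in WT cells (log2 fold change 3.29 ± 0.18, limma adjusted p = 2.15e-05). Il12a, the p35 chain of IL-12, had 7.02 and 7.39 FPKM in Ex3a OVX cells, against 0.249 and 0.340 in WT cells (log2 fold change 2.67 ± 0.08, limma adjusted p = 1.06e-09). Tnf had 90.4 and 93.1 FPKM in Ex3a OVX cells, against 11.3 and 17.6 in WT cells (log2 fold change 2.61 ± 0.25, limma adjusted p = 0.00036). The WT pair was uneven for Il1b and Tnf, and both remained well below the Ex3a OVX pair. Vegfa, described above, and Osm (-0.18) were the members that fell. The chemokine list divided, with 13 of 23 higher and 9 lower (median 0.38, and -0.09 under quantile normalization). Ligands of CXCR3 and of monocyte receptors were among those that rose. Cxcl11 reached 6.58 and 5.43 FPKM in Ex3a OVX cells, against 0.0746 and 0 in WT cells (2.76 ± 0.07). Ccl12, a monocyte attractant, reached 79.4 and 77.4 FPKM in Ex3a OVX cells, against 6.74 and 8.44 in WT cells (3.22 ± 0.17). Those that fell included Ppbp, and Ccl17 and Ccl22, the ligands of CCR4 made by dendritic cells, both far more abundant than Ppbp in Ex3a OVX cells. Ccl17 had 346 and 352 FPKM in Ex3a OVX cells, against 1218 and 1241 in WT cells (-1.82 ± 0.04). Ccl22 had 1573 and 1568 FPKM in Ex3a OVX cells, against 3367 and 3384 in WT cells (-1.10 ± 0.04).

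**Figure D3:**
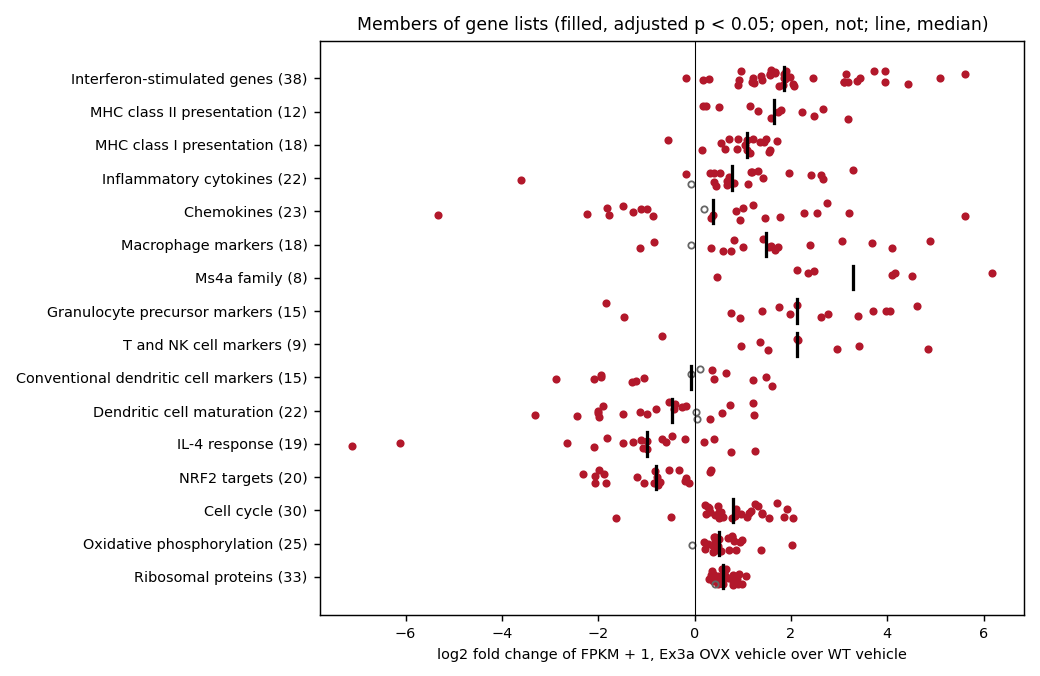
Log2 fold change of FPKM + 1, Ex3a OVX vehicle over WT vehicle, of every tested member of 16 gene lists (number tested in parentheses). Filled points passed the limma test at an adjusted p of 0.05, open points did not, and lines mark medians; interferon-stimulated genes center on 1.86 and Ms4a genes on 3.29, while IL-4 response genes center on -0.997 and NRF2 targets on -0.80.

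Toll-like receptors and their signalling genes leaned upward, with 19 of 27 higher, 10 of them by over 2-fold, and 7 lower (median 0.80). Tlr2, the receptor for bacterial lipoproteins, had 225 and 228 FPKM in Ex3a OVX cells, against 38.5 and 40.3 in WT cells (log2 fold change 2.50 ± 0.04, limma adjusted p = 2.04e-11). Cd180, a TLR-like surface protein, had 114 and 112 FPKM in Ex3a OVX cells, against 25.5 and 24.1 in WT cells (2.14 ± 0.05). Irak3, an inhibitory kinase of the pathway, had 53.6 and 53.5 FPKM in Ex3a OVX cells, against 14.4 and 14.5 in WT cells (1.82 ± 0.05). Tlr7 and Tlr9, the targets of loxoribine and CpG, rose by less. Tlr7 had 36.8 and 37.2 FPKM in Ex3a OVX cells, against 20.7 and 20.9 in WT cells (0.80 ± 0.05). Tlr9 had 22.8 and 22.95 FPKM in Ex3a OVX cells, against 11.8 and 11.99 in WT cells (0.89 ± 0.04). Traf6, the ubiquitin ligase below the receptors, was the largest fall, with 7.04 and 7.00 FPKM in Ex3a OVX cells, against 19.3 and 18.7 in WT cells (-1.32 ± 0.04). Among NF-kB feedback genes 10 of 17 rose and 6 fell, against 41.6% and 40.9% of all genes. Socs3, an inhibitor of cytokine signalling, had 63.0 and 63.1 FPKM in Ex3a OVX cells, against 11.2 and 11.97 in WT cells (log2 fold change 2.35 ± 0.04, limma adjusted p = 2.37e-11). Nfkbiz, which encodes IkBζ, had 13.5 and 13.5 FPKM in Ex3a OVX cells, against 4.35 and 4.34 in WT cells (1.44 ± 0.04). Rel, the NF-kB subunit c-Rel, had 11.6 and 10.6 FPKM in Ex3a OVX cells, against 49.3 and 50.8 in WT cells (log2 fold change -2.08 ± 0.04, limma adjusted p = 3.21e-11). Under quantile normalization this list gave 8 higher and 8 lower.

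Surface receptors of myeloid cells showed some of the largest rises. All 8 tested Ms4a genes rose, 7 by over 2-fold, with a median of 3.29. After Ms4a4c came Ms4a6c with 308 and 311 FPKM in Ex3a OVX cells, against 13.0 and 12.1 in WT cells (4.52 ± 0.09). Ms4a6b had 179 and 179 FPKM in Ex3a OVX cells, against 9.27 and 8.74 in WT cells (4.17 ± 0.05). Ms4a7, a marker of macrophages, had 319.9 and 313 FPKM in Ex3a OVX cells, against 17.9 and 17.4 in WT cells (4.09 ± 0.06). Among Fc receptor genes 8 of 10 rose. Fcgr1, the high-affinity receptor for IgG, had 163 and 165 FPKM in Ex3a OVX cells, against 18.5 and 19.1 in WT cells (log2 fold change 3.06 ± 0.09, limma adjusted p = 1.22e-09). Fcer1g, the signalling chain that Fc receptors share, had 2075 and 2070.2 FPKM in Ex3a OVX cells, against 607 and 616 in WT cells (1.76 ± 0.03). Fcgr4, an activating receptor, had 149 and 152 FPKM in Ex3a OVX cells, against 52.7 and 53.1 in WT cells (1.49 ± 0.06). Fcgrt, the neonatal Fc receptor, had 33.6 and 34.3 FPKM in Ex3a OVX cells, against 11.2 and 11.1 in WT cells (1.52 ± 0.05), and the kinase Syk was the member that fell (-0.35 ± 0.03). The inhibitory receptor Fcgr2b differed little (0.09 ± 0.03).

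Scavenger and lectin receptors divided, with 12 of 20 higher and 6 lower. Clec12a, an inhibitory lectin that senses dead cells, had 77.2 and 78.3 FPKM in Ex3a OVX cells, against 3.26 and 2.99 in WT cells (log2 fold change 4.26 ± 0.05, limma adjusted p = 1.39e-12). Clec4a1 had 292 and 294 FPKM in Ex3a OVX cells, against 16.1 and 15.9 in WT cells (4.11 ± 0.04). Cd36, the receptor for oxidized lipids and thrombospondin, had 160.5 and 159.8 FPKM in Ex3a OVX cells, against 782 and 772 in WT cells (log2 fold change -2.27 ± 0.03, limma adjusted p = 1.06e-11). Colec12, a collectin of the scavenger class, had 0.508 and 0.669 FPKM in Ex3a OVX cells, against 9.96 and 9.61 in WT cells (-2.76 ± 0.07). Of the Cd300 and Trem receptors 7 of 12 rose and 3 fell. Trem2, a lipid-sensing receptor, had 303 and 314 FPKM in Ex3a OVX cells, against 93.8 and 91.0 in WT cells (1.73 ± 0.04). Its signalling partner Tyrobp had 1967 and 1959.5 FPKM in Ex3a OVX cells, against 825 and 824 in WT cells (1.25 ± 0.03). Treml4 had 4.46 and 4.16 FPKM in Ex3a OVX cells, against 9.37 and 9.66 in WT cells (-0.99 ± 0.05). Hcst, a related adaptor, rose by 1.47, and Trem3 by 1.16. Migration receptors divided too (8 higher and 4 lower of 13). Fpr1, a receptor for bacterial formyl peptides, had 373 and 375 FPKM in Ex3a OVX cells, against 35.1 and 37.1 in WT cells (log2 fold change 3.34 ± 0.05, limma adjusted p = 1.24e-11). Cx3cr1, the fractalkine receptor, had 14.3 and 14.7 FPKM in Ex3a OVX cells, against 0.236 and 0.195 in WT cells (3.68 ± 0.11). Ccrl2, a receptor that binds chemerin, rose by 2.61.

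The labelled cell type was checked against its markers. Itgax, which encodes CD11c, was abundant in both groups, with 86.3 and 86.0 FPKM in Ex3a OVX cells, against 109 and 108 in WT cells (log2 fold change -0.33 ± 0.04, limma adjusted p = 2.04e-05). Flt3, a receptor of dendritic cell precursors, had 1.65 and 1.41 FPKM in Ex3a OVX cells, against 1.56 and 1.76 in WT cells, and did not pass the test. Zbtb46, a factor of conventional dendritic cells, had 2.87 and 2.65 FPKM in Ex3a OVX cells, against 13.1 and 13.7 in WT cells (log2 fold change -1.94 ± 0.07, limma adjusted p = 4.17e-09). The markers Clec9a and Xcr1 of cross-presenting dendritic cells were below the level tested. Of 15 conventional dendritic cell markers 6 rose and 7 fell, each of the falls by over 2-fold. Irf4, a factor of dendritic cells that respond to IL-4, had 8.63 and 8.73 FPKM in Ex3a OVX cells, against 70.8 and 69.3 in WT cells (log2 fold change -2.88 ± 0.03, limma adjusted p = 1.59e-12). Mgl2, a lectin of the same cells, had 38.3 and 40.2 FPKM in Ex3a OVX cells, against 169.6 and 171 in WT cells (-2.09 ± 0.05). Cd24a had 21.4 and 23.1 FPKM in Ex3a OVX cells, against 88.4 and 88.1 in WT cells (-1.94 ± 0.04). Tlr3 rose to 11.3 and 10.8 FPKM in Ex3a OVX cells, against 2.71 and 3.21 in WT cells (1.61 ± 0.08). Sirpa, also of this list, rose to 532 and 534 FPKM in Ex3a OVX cells, against 231 and 230 in WT cells (1.21 ± 0.03). The median of this list was -0.07, and 0.07 under quantile normalization.

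Macrophage markers rose in 15 of 18 genes, 11 by over 2-fold, and fell in 2 (median 1.48). Besides Marco, Ms4a7, Cx3cr1 and Fcgr1, Csf1r, the receptor for M-CSF, had 529 and 525 FPKM in Ex3a OVX cells, against 311 and 309.8 in WT cells (0.76 ± 0.05). Cd68, a lysosomal protein of macrophages, had 849 and 854 FPKM in Ex3a OVX cells, against 426 and 418 in WT cells (1.01 ± 0.04). Cd5l, a secreted macrophage protein, was among those that fell (-1.14 ± 0.07). Apoe did not pass the test (-0.07 ± 0.10). The summed level of the list was 9238 and 9251 FPKM in Ex3a OVX cells, against 4662 and 4620.2 FPKM in WT cells.

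Markers of cells other than dendritic cells and macrophages moved with the groups. The granulocyte precursor markers summed to 1215 and 1213 FPKM in Ex3a OVX cells, against 342 and 369 FPKM in WT cells, with 13 of 15 higher and 2 lower. Lcn2, named above as an acute-phase gene, is in this list. It supplied 603 and 594 FPKM of the Ex3a OVX sums and 21.1 and 25.9 FPKM of the WT sums. Mpo, the peroxidase of primary granules, had 15.97 and 16.5 FPKM in Ex3a OVX cells, against 0 and 0.0735 in WT cells (log2 fold change 4.05 ± 0.09, limma adjusted p = 7.66e-11). Prtn3, proteinase 3, had 18.2 and 19.2 FPKM in Ex3a OVX cells, against 0.371 and 0.689 in WT cells (3.70 ± 0.14). S100a9, an alarmin of neutrophils, had 59.2 and 57.3 FPKM in Ex3a OVX cells, against 1.15 and 5.62 in WT cells (log2 fold change 3.97 ± 0.69, limma adjusted p = 0.00527), so the WT pair was uneven. Cebpe, a transcription factor of late granulocyte development, went the other way, with 2.69 and 2.96 FPKM in Ex3a OVX cells, against 13.2 and 12.03 in WT cells (-1.83 ± 0.08). Basophil and mast cell markers summed to 62.6 and 62.9 FPKM in Ex3a OVX cells, against 3.44 and 3.84 FPKM in WT cells, and 6 of 8 rose. Mcpt8, a basophil protease, had 18.5 and 19.0 FPKM in Ex3a OVX cells, against 0.0317 and 0.150 in WT cells (4.18 ± 0.09). Cpa3, a mast cell carboxypeptidase, had 4.14 and 4.59 FPKM in Ex3a OVX cells, against 0.0494 and 0.0195 in WT cells (2.37 ± 0.06). Hdc, which makes histamine, had 6.57 and 6.49999 FPKM in Ex3a OVX cells, against 0.464 and 0.504 in WT cells (2.34 ± 0.09).

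The T and NK cell markers summed to 144 and 145 FPKM in Ex3a OVX cells, against 121 and 124 FPKM in WT cells, most of it Il7r in WT cells, and 8 of 9 rose. Gzma had 12.3 and 10.0 FPKM in Ex3a OVX cells, against 0.120 and 0.177 in WT cells (3.41 ± 0.10). Cd3g, a chain of the T cell receptor complex, had 3.55 and 3.47 FPKM in Ex3a OVX cells, against 0.0496 and 0 in WT cells (2.14 ± 0.07). Nkg7, a granule membrane protein, had 7.05 and 6.53 FPKM in Ex3a OVX cells and was listed at 0 in both WT libraries, so no fold is given. Il7r, the IL-7 receptor, fell, with 74.8 and 75.9 FPKM in Ex3a OVX cells, against 119 and 122 in WT cells (-0.67 ± 0.03). The 2 B cell genes tested, Cd79b and Mzb1, rose, with 5.74 and 5.19 FPKM in Ex3a OVX cells, against 0.226 and 0.195 in WT cells for Cd79b. Of 3 eosinophil genes Prg2 rose (0.83 ± 0.07) while Ear2 (-0.997 ± 0.12) and Ear1 (-0.39 ± 0.08) fell. Among plasmacytoid dendritic cell markers 4 of 6 rose, with 1.75 ± 0.11 for Cox6a2 and 0.78 ± 0.07 for Ly6d, and Pacsin1 fell (-1.30 ± 0.09). The largest of these rises was that of Ly6c2 (4.65), described above as a marker of inflammatory monocytes. Siglech, of the same list, was at 0 in every library of both groups, and Ccr9 was below the level tested. Of the erythroid and megakaryocyte markers only Pf4, platelet factor 4, was tested, and its sign depended on scaling, with 0.34 as deposited and -0.24 under quantile normalization. Stromal and osteoclast markers gave 5 higher and 5 lower of 11, near the shares of all genes (41.6% and 40.9%). They ran from 2.31 ± 0.08 for Pecam1 to -1.45 ± 0.05 for Mmp9, with -1.18 ± 0.07 for Kitl and 1.08 ± 0.08 for Col1a2. The part of these other cell types in the differences of the gene groups above was not tested.

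Genes of dendritic cell maturation leaned downward, with 5 of 22 higher and 15 lower (median -0.47), against 40.9% of all genes lower. Ccr7, the receptor that guides mature dendritic cells to lymph nodes, had 205 and 209 FPKM in Ex3a OVX cells, against 1120.1 and 1123 in WT cells (log2 fold change -2.43 ± 0.04, limma adjusted p = 1.43e-11). Il4i1, an amino acid oxidase of mature dendritic cells, had 26.3 and 25.6 FPKM in Ex3a OVX cells, against 107 and 108 in WT cells (-2.01 ± 0.04). Socs2 had 20.0 and 18.1 FPKM in Ex3a OVX cells, against 78.3 and 79.5 in WT cells (-1.99 ± 0.04). Costimulatory ligands did not move together: Icosl rose, with 18.4 and 17.7 FPKM in Ex3a OVX cells, against 7.19 and 7.13 in WT cells (log2 fold change 1.22 ± 0.04, limma adjusted p = 8.89e-10), and Cd40 rose (1.22 ± 0.05), while Cd80 (-0.99 ± 0.03), Cd83 (-1.13 ± 0.04) and Cd86 (-0.25 ± 0.04) fell. Tnfrsf9, described above, was the largest fall.

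The IL-4 response list fell in 15 of 19 genes, 9 of them by over 2-fold, and rose in 4, with a median of -0.997. Retnla and Arg1 led it. Tgm2, transglutaminase 2, had 33.8 and 32.9 FPKM in Ex3a OVX cells, against 218 and 213 in WT cells (log2 fold change -2.66 ± 0.04, limma adjusted p = 9.22e-12). Ear2 had 7.23 and 11.3 FPKM in Ex3a OVX cells, against 20.3 and 18.7 in WT cells (-0.997 ± 0.12). Il4ra, the receptor chain itself, differed little, with 30.6 and 30.6 FPKM in Ex3a OVX cells, against 35.8 and 35.1 in WT cells (-0.21 ± 0.04), and Mrc1, the mannose receptor, rose slightly (0.20 ± 0.05). Socs1, an inhibitor of cytokine signalling, rose, with 55.9 and 59.4 FPKM in Ex3a OVX cells, against 22.6 and 24.9 in WT cells (1.24 ± 0.06). The Retnla promoter is shown as that of the gene with the largest fall. It lies at chr16:48842359-48842658 on the plus strand (RefSeq, GRCm38.p6), and capitals mark a match to TTCNNNNGAA, the letters searched for STAT6, 145 bases before the start.
Retnla: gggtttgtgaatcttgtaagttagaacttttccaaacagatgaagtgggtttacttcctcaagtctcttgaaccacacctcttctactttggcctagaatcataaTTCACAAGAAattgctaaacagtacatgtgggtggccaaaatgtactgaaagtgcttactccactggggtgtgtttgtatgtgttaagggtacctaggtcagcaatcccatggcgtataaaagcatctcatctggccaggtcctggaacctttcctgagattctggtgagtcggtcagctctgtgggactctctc
Of 21 promoters of this list 4 (19%) held such a match, against 5.49% of the promoters of genes tested and 18.2% of those of the interferon-stimulated genes.

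Targets of NRF2, the factor of the antioxidant response, fell in 18 of 20 genes, 8 by over 2-fold (median -0.80). Hmox1, heme oxygenase 1, had 706 and 699 FPKM in Ex3a OVX cells, against 2981 and 2929 in WT cells (log2 fold change -2.07 ± 0.02, limma adjusted p = 2.28e-12). Slc40a1, the iron exporter ferroportin, had 32.9 and 31.8 FPKM in Ex3a OVX cells, against 168 and 160.2 in WT cells (-2.31 ± 0.04). Nqo1, a quinone reductase, had 10.3 and 12.2 FPKM in Ex3a OVX cells, against 49.4 and 51.5 in WT cells (-2.07 ± 0.04). Gclm, the modifier subunit of glutathione synthesis, had 37.6 and 38.0 FPKM in Ex3a OVX cells, against 153 and 153 in WT cells (-1.99 ± 0.04). The ferritin genes were the members that rose. Ftl1 had 4057 and 4053 FPKM in Ex3a OVX cells, against 3203 and 3203 in WT cells (0.34 ± 0.04). Fth1 had 22329 and 22309.8 FPKM in Ex3a OVX cells, against 17725 and 18074 in WT cells (0.32 ± 0.05). Neither rise held when centred on length, where the sign of Ftl1 turned to -0.10 and the list gave 0 higher and 19 lower. For Hmox1 the steps were -1.02 for Ex3a OVX over ERKO OVX, 1.55 for ERKO OVX over KO and -2.60 for KO over WT, and for Nqo1 they were -3.10 for Ex3a OVX over ERKO OVX, 2.42 for ERKO OVX over KO and -1.38 for KO over WT, so these genes went down, up and down along the path. The Gclm promoter, shown as that of a gene of this group, lies at chr3:122245307-122245606 on the plus strand (RefSeq, GRCm38.p6), and capitals mark the antioxidant response element letters TGACNNNGC, read on the minus strand, 134 bases before the start.
Gclm: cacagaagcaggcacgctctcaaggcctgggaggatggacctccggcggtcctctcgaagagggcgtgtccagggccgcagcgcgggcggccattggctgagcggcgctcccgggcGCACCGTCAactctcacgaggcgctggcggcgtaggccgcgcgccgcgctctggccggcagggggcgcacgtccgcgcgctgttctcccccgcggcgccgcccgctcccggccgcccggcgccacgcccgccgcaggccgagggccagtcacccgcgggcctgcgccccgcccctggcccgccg
Such a match stood in 7 of 19 promoters of the list (36.8%), against 14.6% of the promoters of genes tested, 14.2% of those of genes that rose by over 2-fold and 15% of those of genes that fell by over 2-fold.

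Lysosomal genes rose in 19 of 21, 9 by over 2-fold, and fell in 1 (median 0.98, and 0.55 under quantile normalization). Cst7, cystatin F, a cathepsin inhibitor, had 325 and 322 FPKM in Ex3a OVX cells, against 29.9 and 28.5 in WT cells (log2 fold change 3.43 ± 0.04, limma adjusted p = 2.50e-12). Ctsc, which activates granule proteases, had 611 and 614 FPKM in Ex3a OVX cells, against 156 and 159 in WT cells (1.95 ± 0.03). Grn, progranulin, had 1767 and 1778 FPKM in Ex3a OVX cells, against 576 and 560.5 in WT cells (1.64 ± 0.03). Ctss, the protease that trims the class II invariant chain, had 6688 and 6678 FPKM in Ex3a OVX cells, against 2226 and 2237 in WT cells (1.58 ± 0.03). Ctsk, a collagen-cutting cathepsin, fell, with 34.4 and 35.9 FPKM in Ex3a OVX cells, against 66.7 and 66.7 in WT cells (-0.91 ± 0.04). Complement genes rose in 14 of 17 and fell in 2, with 9 higher and 3 lower under quantile normalization. Cfb, complement factor B, had 944 and 938 FPKM in Ex3a OVX cells, against 97.3 and 99.4 in WT cells (log2 fold change 3.25 ± 0.03, limma adjusted p = 1.07e-12). C3 had 508 and 503 FPKM in Ex3a OVX cells, against 173 and 173 in WT cells (1.54 ± 0.04). Its receptor C3ar1 had 227 and 227 FPKM in Ex3a OVX cells, against 71.5 and 69.2 in WT cells (1.68 ± 0.06). Properdin, Cfp, had 720.2 and 720.1 FPKM in Ex3a OVX cells, against 314 and 313 in WT cells (1.20 ± 0.03). C1qa did not pass the test (0.04 ± 0.06).

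Matrix and protease genes divided, with 7 of 18 higher and 11 lower (median -0.67). Besides Thbs1 and Fn1, Mmp9, a gelatinase, fell, with 15.7 and 15.7 FPKM in Ex3a OVX cells, against 44.4 and 44.6 in WT cells (-1.45 ± 0.05). Mmp2, the other gelatinase, rose, with 123 and 127 FPKM in Ex3a OVX cells, against 18.2 and 18.6 in WT cells (log2 fold change 2.70 ± 0.06, limma adjusted p = 7.06e-11). Lox, which cross-links collagen, rose, with 17.2 and 17.2 FPKM in Ex3a OVX cells, against 1.48 and 1.53 in WT cells (log2 fold change 2.86 ± 0.06, limma adjusted p = 7.86e-11). Genes of apoptotic cell uptake fell in 11 of 17 and rose in 6. Thbs1, Tgm2 and Cd36 were the largest falls, and Scarf1, a scavenger receptor, rose, with 52.3 and 53.5 FPKM in Ex3a OVX cells, against 19.0 and 19.4 in WT cells (1.42 ± 0.05). The median of that list was -0.36, and 0.08 when centred on length.

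Cell cycle genes rose in 28 of 30, 12 by over 2-fold (median 0.80). Birc5, survivin, had 34.3 and 35.004 FPKM in Ex3a OVX cells, against 7.61 and 7.64 in WT cells (log2 fold change 2.05 ± 0.05, limma adjusted p = 1.57e-10). Ccnb2, cyclin B2, had 11.9 and 11.8 FPKM in Ex3a OVX cells, against 2.30 and 2.50 in WT cells (1.92 ± 0.06). Tk1, thymidine kinase, had 24.2 and 23.3 FPKM in Ex3a OVX cells, against 6.43 and 6.65 in WT cells (1.72 ± 0.06), and Ube2c, which drives mitotic exit, rose by 1.85 on the log2 scale. Mki67, the proliferation antigen Ki-67, went the other way, with 4.88 and 5.15 FPKM in Ex3a OVX cells, against 17.5 and 17.5 in WT cells (log2 fold change -1.62 ± 0.04, limma adjusted p = 2.74e-10), and Cdk2 also fell (-0.50 ± 0.04). Mki67 has a long transcript, and its log2 fold change was -0.96 when centred on length. Ribosomal protein genes rose in 32 of 33 (median 0.59), with 1 over 2-fold, and respiratory chain genes in 24 of 25 (median 0.51), with 2 over 2-fold. Rplp1 had 2307 and 2321 FPKM in Ex3a OVX cells, against 1115 and 1103 in WT cells (1.06 ± 0.03), and Rps20 rose by 0.98. Ndufa4, a subunit linked to cytochrome oxidase, had 279 and 278 FPKM in Ex3a OVX cells, against 68.9 and 67.7 in WT cells (2.01 ± 0.04). Sdhb, of succinate dehydrogenase, had 252 and 249.6 FPKM in Ex3a OVX cells, against 95.1 and 96.7 in WT cells (1.38 ± 0.03), with 0.98 for Cox7a2 and 0.94 for Uqcrq. These rises are not independent of scaling: the 815 genes with a mean of at least 100 FPKM had a median of 0.46 as deposited and 0.02 under quantile normalization, under which ribosomal genes gave 15 higher and 5 lower and respiratory genes 16 higher and 4 lower.

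Sterol and fatty acid synthesis genes fell in 17 of 25 and rose in 5 (median -0.34). Scd1, which desaturates fatty acids, had 3.499 and 3.46 FPKM in Ex3a OVX cells, against 28.8 and 28.6 in WT cells (log2 fold change -2.73 ± 0.04, limma adjusted p = 1.47e-11). Idi1, of isoprenoid synthesis, had 3.19 and 3.77 FPKM in Ex3a OVX cells, against 10.3 and 10.3 in WT cells (-1.33 ± 0.05), and Acaca, the acetyl-CoA carboxylase, fell by 1.08 on the log2 scale, with -0.45 when centred on length. Msmo1 rose (0.53 ± 0.04). Glycolysis and hypoxia genes fell in 16 of 24 and rose in 5 (median -0.22), with Egln3, an oxygen-sensing hydroxylase, at 2.78 and 2.56 FPKM in Ex3a OVX cells, against 8.99 and 10.2 in WT cells (-1.53 ± 0.07) and Hk3, a hexokinase of myeloid cells, at 142 and 143 FPKM in Ex3a OVX cells, against 73.1 and 71.7 in WT cells (0.96 ± 0.03). Pgk1 fell by 0.78 and Ndrg1 by 0.86. Lipid handling genes rose in 8 of 18 and fell in 3, and 7 did not pass the test, with 6 higher and 7 lower under quantile normalization. Plin2, a lipid droplet protein, had 308 and 307 FPKM in Ex3a OVX cells, against 622 and 612 in WT cells (-1.003 ± 0.04). Abcg1, a sterol exporter, had 72.9 and 73.6 FPKM in Ex3a OVX cells, against 39.7 and 39.8 in WT cells (0.86 ± 0.03) and Apoc2 had 3.49 and 2.65 FPKM in Ex3a OVX cells, against 0.0761 and 0.17995 in WT cells (1.85 ± 0.09).

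Among nuclear receptors 8 of 16 rose and 5 fell, against 41.6% and 40.9% of all genes. Nr1h3, which encodes the oxysterol receptor LXRα, had 66.1 and 67.4 FPKM in Ex3a OVX cells, against 5.25 and 5.595 in WT cells (log2 fold change 3.40 ± 0.06, limma adjusted p = 2.04e-11). Vdr, the vitamin D receptor, had 16.004 and 16.4 FPKM in Ex3a OVX cells, against 111 and 110.2 in WT cells (log2 fold change -2.70 ± 0.04, limma adjusted p = 7.38e-12). Rarg, a retinoic acid receptor, had 5.85 and 5.79 FPKM in Ex3a OVX cells, against 2.56 and 2.50 in WT cells (0.95 ± 0.07). Of 15 genes linked to estrogen in other tissues, 6 rose and 7 fell, near the shares of all genes. Nrip1, a receptor corepressor, had 3.67 and 4.03 FPKM in Ex3a OVX cells, against 13.0 and 14.0 in WT cells (-1.58 ± 0.05). Cyp1b1, which hydroxylates estradiol, had 8.11 and 7.64 FPKM in Ex3a OVX cells, against 16.9 and 17.4 in WT cells (-1.03 ± 0.04). Ltf, lactoferrin, had 2.11 and 2.05 FPKM in Ex3a OVX cells, against 0.123 and 0.223 in WT cells (1.40 ± 0.08). The full estrogen response element GGTCANNNTGACC stood in 23 of all 32851 promoter windows (0.07%) and in 0 of the 11000 of genes tested, so it could not be compared between sets.

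The difference between the groups ran with transcript length. Over the 10789 genes with an annotated length, sorted by their longest transcript into 10 classes of about equal size, the median log2 fold change was 0.48 in the shortest class (124 to 1351 bases) and -0.55 in the longest (6617 to 123179 bases). The share of genes higher in Ex3a OVX cells was 71.8% in the shortest and 10.9% in the longest class, and the share lower was 15.3% and 79.2%. Along the path, the medians of the shortest and longest classes were 0.06 and -0.09 for Ex3a OVX over ERKO OVX, 0.39 and -0.46 for ERKO OVX over KO, and 0.02 and 0.00 for KO over WT. The trend therefore lay mostly in the step from unoperated to operated libraries, across which depth and the sum of FPKM also changed; the part of library or RNA quality was not tested. With the trend taken out of each sample (a setting added after the data were seen), 8459 of 10789 genes passed the test, and 704 rose and 624 fell by over 2-fold, of which 1108 were among the 1652 found without it. Medians of the leading lists then were 1.69 for interferon-stimulated genes, 1.30 for MHC class II genes, -1.001 for the IL-4 response, -1.15 for NRF2 targets, 0.24 for ribosomal proteins and 0.23 for the respiratory chain. Esr1 was at -0.43 and Xist at -1.74. Of the 194 named genes that passed the test and had a length, 30 had a difference over 1.5 times smaller or of opposite sign on the log2 scale. Among them were Tyrobp at 0.72, Hcst at 0.91, Trem3 at 0.73, Rplp1 at 0.51, Cox7a2 at 0.47, Uqcrq at 0.62, Syk at -0.08, Ly6d at 0.29 and Prg2 at 0.36. The X-linked Kdm5c was at -0.12, Kdm6a at -0.45 and Ddx3x at -0.24.

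**Figure D4:**
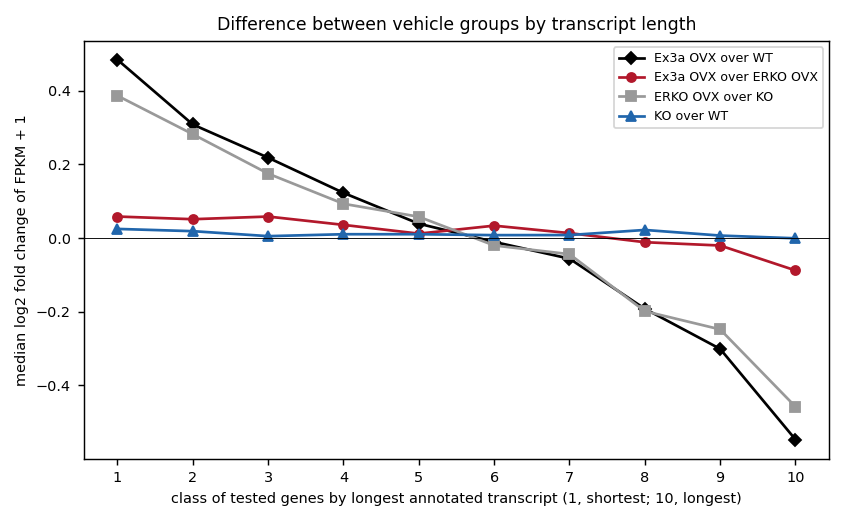
Median log2 fold change of FPKM + 1 in 10 classes of the tested genes sorted by their longest annotated transcript (1, shortest), for Ex3a OVX over WT and for the 3 steps between the vehicle groups. The black line of Ex3a OVX over WT runs between 0.48 in the shortest and -0.55 in the longest class, and the grey line of ERKO OVX over KO lies close to it, while the red and blue lines stay near 0.

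The same arms were compared in the agonist libraries, which share no library with the vehicle comparison. There 9577 of 11346 genes (84.4%) passed the test, 4781 higher and 4796 lower in Ex3a OVX cells. Of the 1652 genes that differed by over 2-fold under vehicle, 1619 (98%) were called in the same direction with agonists and 12 in the opposite one. The arms differ in surgery, pellet and depth with agonists as they do under vehicle. The trend with transcript length recurred too, with agonist medians of 0.53 in the shortest and -0.63 in the longest class. All 15 of the largest rises and all 15 of the largest falls were called in the same direction. Retnla had 0.361 and 0.584 FPKM in Ex3a OVX agonist libraries, against 194 and 193 FPKM in WT agonist libraries, Arg1 had 1.31 and 1.004 FPKM in Ex3a OVX agonist libraries, against 119 and 119 FPKM in WT agonist libraries, and Plac8 had 161 and 154 FPKM in Ex3a OVX agonist libraries, against 0.997 and 0.485 FPKM in WT agonist libraries. Interferon-stimulated genes stayed apart as well, Ifit3 having 305 and 307 FPKM in Ex3a OVX agonist libraries, against 11.4 and 11.6 FPKM in WT agonist libraries.

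The size of the difference between arms changed with treatment in 4072 genes (35.9%), 1926 more positive and 2146 more negative with agonists. Among the 200 named genes this difference was itself over 2-fold in 18, of which 16 differed less with agonists and 2 more. Most of these genes were named for large differences under vehicle, which tilts that count. Over all genes 156 passed the same limits. In 99 of them the change with agonists ran against the sign of the vehicle difference, and in 57 it had the same sign. A change against that sign can pass 0 and end larger, so sizes were not compared over all genes. Il1b had 856 and 846 FPKM in Ex3a OVX agonist libraries, against 702 and 682 FPKM in WT agonist libraries, a log2 difference of 0.30 with agonists and 3.29 with vehicle (difference -2.996 ± 0.25, limma adjusted p = 0.000835). Tnf had 173 and 169 FPKM in Ex3a OVX agonist libraries, against 167 and 165 FPKM in WT agonist libraries, with 0.04 under agonists and 2.61 under vehicle (-2.57 ± 0.36, limma adjusted p = 0.00591). With agonists the levels of both genes in the 2 arms lay close together, while under vehicle they were far apart. Ptgs2, the inducible cyclooxygenase, had 59.3 and 57.6 FPKM in Ex3a OVX agonist libraries, against 59.2 and 56.9 FPKM in WT agonist libraries (-2.81 ± 0.37, limma adjusted p = 0.00418). Saa3 had 7120.3 and 7120.3 FPKM in Ex3a OVX agonist libraries, against 910.1 and 944 FPKM in WT agonist libraries (-2.35 ± 0.10, limma adjusted p = 1.17e-06), and Cxcl10 had 192 and 193 FPKM in Ex3a OVX agonist libraries, against 7.62 and 10.4 FPKM in WT agonist libraries (-1.34 ± 0.23, limma adjusted p = 0.0051), both still far higher in Ex3a OVX cells. Fcgr1 differed more with agonists, with 148 and 143 FPKM in Ex3a OVX agonist libraries, against 7.30 and 7.12 FPKM in WT agonist libraries (1.10 ± 0.13, limma adjusted p = 0.000225). Ccr7 kept its difference, at -2.44 with agonists and -2.43 with vehicle (-0.01 ± 0.05, limma adjusted p = 0.883).

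**Figure D5:**
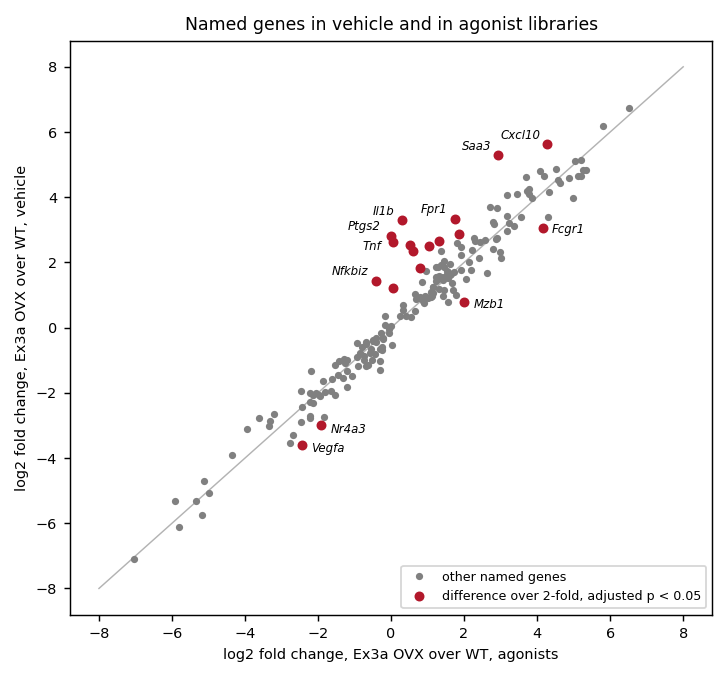
Log2 fold change of FPKM + 1, Ex3a OVX over WT, in agonist libraries (horizontal) and in vehicle libraries (vertical) for the 200 named genes, with the line of equal values. Most points lie along the line; the 18 red points differ by over 2-fold between treatments with a limma adjusted p under 0.05, and Il1b (0.30 with agonists, 3.29 with vehicle), Tnf and Ptgs2 lie near 0 on the agonist axis.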

How the data were processed

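Groups follow the source names in the labels, with 2 libraries per group; the labels speak of triplicates, and for WT vehicle library 1 they mention raw data of 1 read of the pair only. The authors deposited FPKM per gene. Tools named without versions, per the submitters' processing notes, are STAR, HTSeq, cutadapt, FastQC and DESeq2, with the build mm10. The program that made the FPKM was not given in the sources used here. The labels' protocols name the TruSeq RNA Sample Prep Kit and no use of strand, so reads of a gene and of an antisense partner cannot be told apart.

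Of 24001 rows, 5724 were at 0 throughout, 1238 small RNA rows were left out, 27 symbols had become dates and were not named, and 5 zeros were taken as missing (every other of at least 12 libraries above 0 held 5 FPKM or more). Genes with at least 1 FPKM in 2 libraries (11346) were tested with limma 3.58.1 in R 4.3.3 (trend, robust empirical Bayes) on log2(FPKM + 1), 1 coefficient per group, with Benjamini-Hochberg adjustment over all genes and a threshold of 0.05. Ovariectomized pairs varied by 0.791 to 0.923 times the counting variance and unoperated pairs by 2.03 to 5.33 times, in genes of 5000 or more estimated fragments. Each ovariectomized pair was therefore averaged, which left 12 samples; the 4 residual degrees of freedom come from the unoperated groups alone. Depth is a rough estimate from 4153 genes with 1 transcript, since 50.2% to 55.3% of low values per library came within 0.1 of whole fragments, so no count test was run. Levels of a gene at 0 are listed values, and no detection floor is given. The method was tested on simulated data.

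Named genes were the 15 largest rises and falls (adjusted p under 0.05, at least 5 FPKM in the higher group, no overlap, no predicted genes), the 4 largest differences and the largest opposite one in each list, a list of genes around Esr1 and the sex-linked genes. Isg15, Rsad2, Irf9, Mx1, Osm, Ciita, Ccl17, Ccl22, Tlr7, Tlr9, Fcgr2b, Flt3, Sirpa, Csf1r, Cd68, Apoe, Cd40, Cd80, Cd83, Cd86, Il4ra, Mrc1, Fth1, C1qa and Cdk2 fall outside that rule and were named after their values were seen. A few genes that the rule names are not reported here. The comparison, the lists and the rule were chosen with earlier results of these data known. Gene positions and transcript lengths come from GENCODE and promoters from RefSeq, both for GRCm38. Lengths were found for 95.1% of tested genes; length-centred values subtract, in each sample, a lowess curve (span 0.3) of the deviation from the gene mean. The settings tried were other pseudocounts, low-value filters, scalings, sets of samples, a replicate term, single libraries left out and a test against 1.5-fold.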

Additional observations from a re-analysis of the deposited data

Results flagged for a closer look

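The difference between Ex3a OVX and WT cells itself differed by over 2-fold between agonist and vehicle libraries in 18 of the 200 named genes, by the interaction term of the limma fit at an adjusted p of 0.05. In 16 of them the difference was smaller with agonists and in 2 it was larger. Most of these genes were named for the size of their difference under vehicle, which tilts that count. Over all genes the same limits gave 156. The change with agonists ran against the sign of the vehicle difference in 99 and had the same sign in 57, and sizes were not compared. Past that test at any size were 35.9% of all genes. Values below are the log2 difference with agonists, then that with vehicle, and the first minus the second.

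Cytokine, prostaglandin and acute-phase genes differed less with agonists. Il1b had 0.30 and 3.29 (-2.996), Ptgs2 0.01 and 2.82 (-2.81), Tnf 0.04 and 2.61 (-2.575), Saa3 2.94 and 5.29 (-2.35), and Ptges, which makes prostaglandin E2, 0.51 and 2.53 (-2.02). Il12a had 1.30 and 2.67 (-1.36), and Cxcl10 4.28 and 5.62 (-1.34). So did receptors and regulators of their signalling. Nfkbiz had -0.42 and 1.44 (-1.86), Socs3 0.59 and 2.35 (-1.75), Fpr1 1.75 and 3.34 (-1.59), Tlr2 1.04 and 2.50 (-1.45), and Irak3 0.80 and 1.82 (-1.02). Nfkbiz had opposite signs under the 2 treatments. Icosl had 0.05 and 1.22 (-1.17), and Lox 1.86 and 2.86 (-1.002). Of the genes lower in Ex3a OVX cells, Vegfa had -2.45 and -3.59 (1.15), and Nr4a3 -1.91 and -2.999 (1.085). Fcgr1, with 4.15 and 3.06 (1.095), and Mzb1, with 2.01 and 0.78 (1.225), differed more with agonists. What sets these genes apart was not tested.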

How the results depend on the processing

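The count of genes changed was 9361, and lay between 7411 (a filter at 5 FPKM) and 10788 (no filter) under every setting but one. A test against a change of 1.5-fold called 2882 (1415 higher, 1467 lower), since it asks for a larger change. The count of genes changed over 2-fold was 1652. It was 797 (494 higher, 303 lower) with a pseudocount of 5 FPKM, which shrinks low genes by construction. Of those 62.0% were higher, against 49.8% with a pseudocount of 1. A pseudocount of 0.1 FPKM gave 2433 genes (1070 higher, 1363 lower), of which 44.0% were higher. With 1 of the 4 libraries left out at a time, 8971 to 9381 genes changed and 1654 to 1666 changed over 2-fold. Agonist and interaction counts stayed within 1.5 times of those reported under each alternative run for them. The labels number the replicates 1 and 2 in each group, and deviations of same-numbered libraries of these groups correlated at r = 0.02 over 5806 genes. The Ex3a OVX pair differed by no more than sampling noise, so this value cannot show whether same-numbered libraries share anything but a number. With a replicate block 9330 genes changed and 1653 changed over 2-fold, and the block changed no call among the 200 named genes. All 30 leading genes kept direction and call under each setting, 28 of them having a length for the length-centred one. Their choice by size makes that outcome likely in advance. The test against 1.5-fold lost 25 of the other 170 named genes. Centring on length turned Plekhg1 to 0.020, Ginm1 to -0.28, Ftl1 to -0.10 and Pf4 to -0.19, and quantile normalization turned Pf4 to -0.24; the cause was not tested. Under quantile normalization the medians of the chemokine, immediate early and lipid handling lists and of the conventional dendritic cell markers changed sign, and under length-centring those of the immediate early, apoptotic uptake and estrogen-linked lists and of the same markers. H2-Q7 lost its call with all 16 libraries as samples (adjusted p 0.443) and with only the 4 libraries (0.138) in the limma fit, and Mthfd1l lost its call under 6 settings. The estimated depth of the WT vehicle libraries was above that of the Ex3a OVX ones, so low values are less precise in Ex3a OVX cells, and surgery, pellet, receptor and depth cannot be told apart under any setting.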

Other observations

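Eicosanoid enzymes divided, with 8 of 14 tested genes higher in Ex3a OVX cells, 3 lower and 3 not past the limma test. For this list and the next, the shares over all genes were 41.6% higher and 40.9% lower. Ptgs2 had 27.4 and 28.8 FPKM in Ex3a OVX cells, against 2.33 and 4.11 in WT cells (2.82 ± 0.26), and its WT pair was uneven. Ptges, the synthase that follows it, had 36.9 and 36.5 FPKM in Ex3a OVX cells, against 5.41 and 5.61 in WT cells (2.53 ± 0.07), and Ptger2, a receptor for prostaglandin E2, had 8.65 and 8.92 FPKM in Ex3a OVX cells, against 3.47 and 3.26 in WT cells (1.16 ± 0.09). Alox5, the lipoxygenase of leukotriene synthesis, went the other way, with 6.59 and 6.70 FPKM in Ex3a OVX cells, against 15.9 and 15.9 in WT cells (-1.14 ± 0.06). Of 13 enzymes of arginine, itaconate and tryptophan use, 6 rose and 5 fell (5 and 6 under quantile normalization). Ido1, which breaks down tryptophan, had 9.14 and 10.4 FPKM in Ex3a OVX cells, against 0.641 and 0.613 in WT cells (2.73 ± 0.08), and the related Ido2 had 5.99 and 5.76 FPKM in Ex3a OVX cells, against 0.950 and 1.17 in WT cells (1.74 ± 0.08). Under quantile normalization the eicosanoid list gave 4 higher and 4 lower.

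Of 22 receptors for growth factors and cytokines, 12 rose, 5 fell and 5 did not pass the test. The shares over all genes were 41.6% higher and 40.9% lower, here and for the immediate early list below. Csf3r, the G-CSF receptor, had 14.1 and 13.6 FPKM in Ex3a OVX cells, against 1.51 and 1.31 in WT cells (2.62 ± 0.06), and Ifnar2, a chain of the type I interferon receptor, had 203 and 203 FPKM in Ex3a OVX cells, against 66.5 and 68.5 in WT cells (1.58 ± 0.03). Il2rg, the chain shared by several interleukin receptors, had 484 and 480.5 FPKM in Ex3a OVX cells, against 160.3 and 163 in WT cells (1.57 ± 0.03), and Il1r2, the decoy receptor for IL-1, had 7.24 and 7.07 FPKM in Ex3a OVX cells, against 1.75 and 1.83 in WT cells (1.55 ± 0.08). Csf2rb, the signalling chain of the GM-CSF receptor, fell, with 424 and 423 FPKM in Ex3a OVX cells, against 973 and 964 in WT cells (-1.19 ± 0.03). Of 18 immediate early and stress genes, 9 rose and 6 fell (6 and 8 under quantile normalization); their median log2 difference was 0.13 as deposited and -0.08 under quantile normalization. Egr1 had 7.39 and 7.82 FPKM in Ex3a OVX cells, against 3.36 and 3.16 in WT cells (1.02 ± 0.06), Fos rose by 0.75 and Klf2 by 0.68 on the log2 scale (0.43 when centred on length), and Egr2 was -0.60.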
